A study of Mus musculus with 6 samples.

Results

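Adrenal glands of mice lacking Abcg8 in the whole body were compared after a diet high or low in sitosterol, the main plant sterol, over all genes that reached 1 CPM (counts per 1e6 estimated counts) in at least 1 of the 2 adrenal libraries. By that rule 14224 of 33639 gene symbols were analysed. The gene just inside the limit, Ackr2, reached 1.01 CPM, and the one just outside it, 4921513D11Rik, reached 0.999 CPM. Per the labels, the mice were male global ABCG8 knockouts. They were raised until weaning on a low sterol chow that contained 0.005% ezetimibe, a drug that blocks sterol absorption, and then received the low or the high sitosterol diet for 12 weeks. Both groups carried the knockout and the early ezetimibe, so neither is a wild-type or untreated control, and how much sitosterol each diet held is not given in the sources used here. Each group was 1 library, so every difference below is between libraries and not between diets, without a replicate check and without a p-value.

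Abcg8 and its partner Abcg5 form the transporter that sends plant sterols back into bile and gut, and its loss lets them build up in blood and tissues. The adrenal cortex takes up lipoprotein cholesterol through the receptor encoded by Scarb1, stores it as ester, and delivers it through Star to the mitochondria, where Cyp11a1 starts steroid synthesis. The outer zona glomerulosa makes aldosterone and the zona fasciculata makes corticosterone under the pituitary hormone ACTH. In mice an inner X-zone is lost at puberty in males and around the first pregnancy in females, and the medulla holds chromaffin cells that release catecholamines.

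The libraries held 41546507 (low) and 48058374 (high) estimated counts over 20613 and 21199 genes, and TMM scaling factors of 0.99 and 1.01 set them on a common scale, called scaled CPM below. A count of 0 allowed up to 0.0722 CPM in the low and 0.0624 CPM in the high sitosterol library, taking 3 counts as the upper limit. Mitochondrially encoded genes took 6.54% and 6.02% of the counts. Cortex enzymes and chromaffin genes were abundant in both libraries, as the tissue label implies. The male label was not borne out. Reads of a pair of broadly expressed Y-linked genes were nearly missing, with 0 (low) and 2 (high) counts of Eif2s3y and 3 in each library of Ddx3y, against at least 1188 in each liver of the series. Of the other Y-linked genes, Kdm5d had 87 and 105 counts and Uty had 9 and 19, against at least 323 and 252 in each liver. Counts of 2 and 3 for Abcg8, and of 2 and 1 for Abcg5, were too few to check the knockout in adrenal RNA.

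Markers of other tissues were summed first, because fewer cells of a type and less RNA per cell cannot be told apart in a bulk library. The 11 white adipocyte markers summed to 5281 scaled CPM (low) and 2472 scaled CPM (high), and the 9 brown adipocyte markers to 584 and 181. The low sitosterol library thus held more adipocyte RNA on both sums. The 10 kidney tubule markers summed to 120.2 (low) and 87.1 (high) scaled CPM, nearly all of it from the water channel gene Aqp1 (119.8 and 81.6), which endothelium also expresses. Against that direction, Umod, a urinary protein made only in the kidney tubule, had 0 and 32 counts, and the phosphate transporter gene Slc34a1 had 1 and 149. Skeletal muscle markers summed to 2.25 and 1.76 scaled CPM, with Myh2 at 0 in both libraries. The 10 hepatocyte markers summed to 659 and 299, most of it from Cyp2e1 (621 and 255), while albumin (Alb) stood at 15.2 and 17.8.

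Genes called higher or lower below are those whose high sitosterol level lay 2-fold or more (log2 size of 1) from the low one, with an exact 95% counting interval that excluded equality. By this rule 540 genes were higher (3.80% of those analysed) and 329 were lower (2.31%), shares to read beside the list counts below. The median log2 ratio of all genes was 0.00037. Most genes lay close to that median, with 78.0% within 0.5 on the log2 scale. Depth made small differences visible, and the interval excluded equality for 68.1% of genes. Of the 869 genes counted, 712 also differed by 2-fold or more in the same direction in the deposited TPM values. Of the 869, 93 were on any of the 48 gene lists described below and 776 were on none. The lists held 557 of the 14224 genes analysed, so listed genes were counted more often than genes as a whole. List members were, however, chosen with earlier results of these data known. A further caution concerns genes near the limit. In all, 378 genes reached 1 CPM in the high library alone and 199 of them were counted as higher, while 212 reached it in the low library alone and 100 of them were counted as lower.

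**Figure D1:**
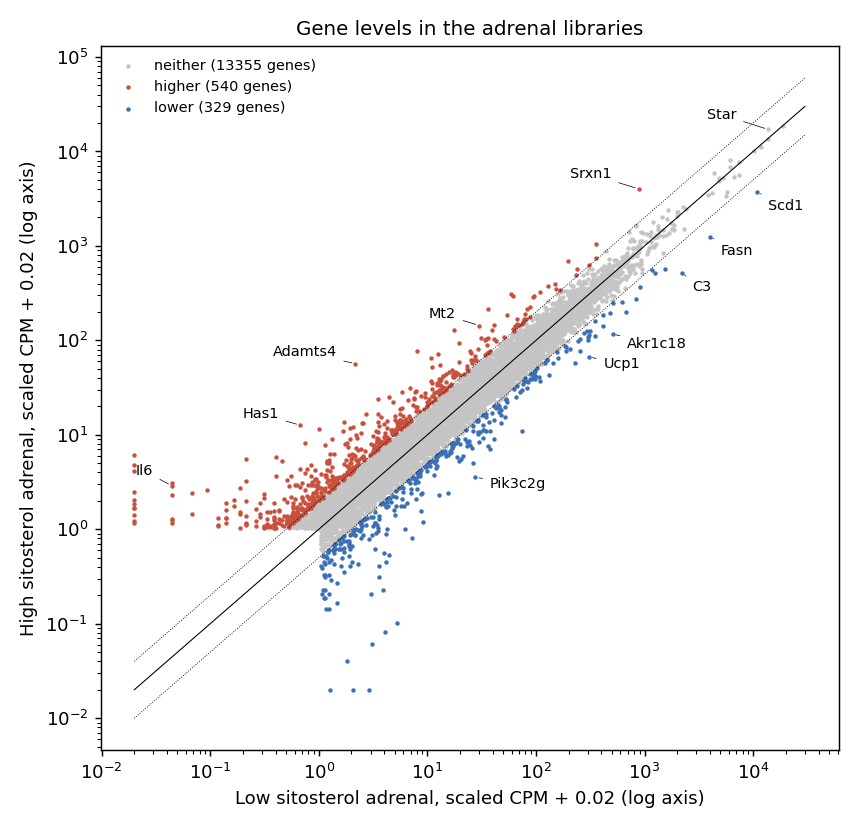
Scaled CPM plus 0.02 of 14224 genes in the low sitosterol (x axis) and high sitosterol (y axis) adrenal library, both axes logarithmic, with 1 point per gene. The solid line marks equal levels and the dotted lines a 2-fold difference. The 540 genes counted as higher are red and the 329 counted as lower are blue. Srxn1 and Adamts4 lie far above the line, and Scd1, Fasn and Akr1c18 lie below it.

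The steroid-making machinery of the cortex stood at nearly the same level in both libraries. Of 12 genes of steroid synthesis 0 were higher and 0 were lower, with a median log2 ratio of 0.01, beside 6.11% of all genes in either direction. Together these 12 genes took 5.81% of the counts of the low and 5.96% of the high sitosterol library. The later enzymes stood close together in both libraries. Cyp11b1, which makes corticosterone in the zona fasciculata, stood at 10272 and 10164 scaled CPM (log2 -0.02, 95% interval -0.02 to -0.01). Cyp21a1, the 21-hydroxylase, stood at 13834 and 13407, and Hsd3b1, which makes progesterone, at 11741 and 11047. Cyp11b2, the aldosterone synthase, had 371 and 419 scaled CPM.

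The first steps of the pathway differed more, and not all in one direction. Star (GRCm38 chromosome 8, 25806555 to 25815982, plus strand), the carrier of cholesterol into mitochondria, was 1.24-fold higher, at 13791 and 17089 scaled CPM. Cyp11a1 (chromosome 9, 58006411 to 58027023, plus strand), the side-chain cleavage enzyme, was instead lower, at 5804 and 3723 (log2 -0.64, -0.65 to -0.63). Its electron donor ferredoxin, encoded by Fdx1, stood at 826 and 1615 scaled CPM, 1.95-fold higher and just short of the 2-fold limit. Ferredoxin reductase, Fdxr, was at log2 -0.28. On the length-corrected TPM scale the same genes gave log2 ratios of 0.27 for Star, -0.68 for Cyp11a1 and 0.89 for Fdx1.

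Genes of ACTH and cAMP signalling had 1 of 19 analysed members higher and 0 lower, with a median log2 ratio of -0.16. The exception was Crem, whose short products are induced by cAMP, at 74.5 and 149.7 scaled CPM. Its ratio of 2.01 sits at the limit. The ACTH receptor Mc2r (0.18 on the log2 scale), its accessory protein Mrap (0.53) and the steroidogenic factor Nr5a1 (0.19) were all somewhat higher. Pde8b, which degrades cAMP in the cortex, was lower, at 129 and 70.4. The immediate early factor Nr4a1, abundant in both libraries, was at -0.29. Among other genes of the zona fasciculata, Akr1b7, which detoxifies the aldehyde released by side-chain cleavage, stood at 6131 and 8052, and the drug exporter gene Abcb1b at 723 and 1403 (1.94-fold). The list of fasciculata markers had 0 of 9 past the limit in either direction and a median of 0.31.

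Zona glomerulosa markers leaned the other way. Of 13 markers 11 were below 0, with a median of -0.23, and 1 passed the size limit. That was the angiotensin receptor gene Agtr1b, at 16.9 and 7.23 scaled CPM (log2 -1.22, -1.41 to -1.04). Cacna1h, a calcium channel of aldosterone-making cells, was at -0.80, Vsnl1 at -0.72, the signalling gene Wnt4 at -0.68 and the progenitor signal Shh at -0.56. Aldosterone synthase itself was on the higher side, as given above. Capsule and mesenchyme markers had 0 of 11 past the limit and a median of -0.29, with Col1a1 at -0.83.

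The X-zone markers showed the widest difference of any cortical zone. All 3 were lower, with a summed level of 601 (low) and 154 (high) scaled CPM. Akr1c18, the progesterone-inactivating 20-alpha-hydroxysteroid dehydrogenase that defines this zone (chromosome 13, 4132615 to 4150654, minus strand), stood at 507 and 117, a 4.34-fold difference (log2 -2.12, -2.16 to -2.07). Pik3c2g, a lipid kinase gene enriched in the same cells, stood at 27.7 and 3.53 and had the lowest ratio of the genes at 10 CPM or more (-2.96, -3.21 to -2.74). Thrb, the thyroid hormone receptor of the X-zone, was at -1.01, and did not reach the limit when scaled by total counts. The X-zone differs by sex, and Y-linked counts were low in both libraries, as given above. Akr1d1, a steroid 5-beta-reductase, was also lower, at 1480 and 852.

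**Figure D2:**
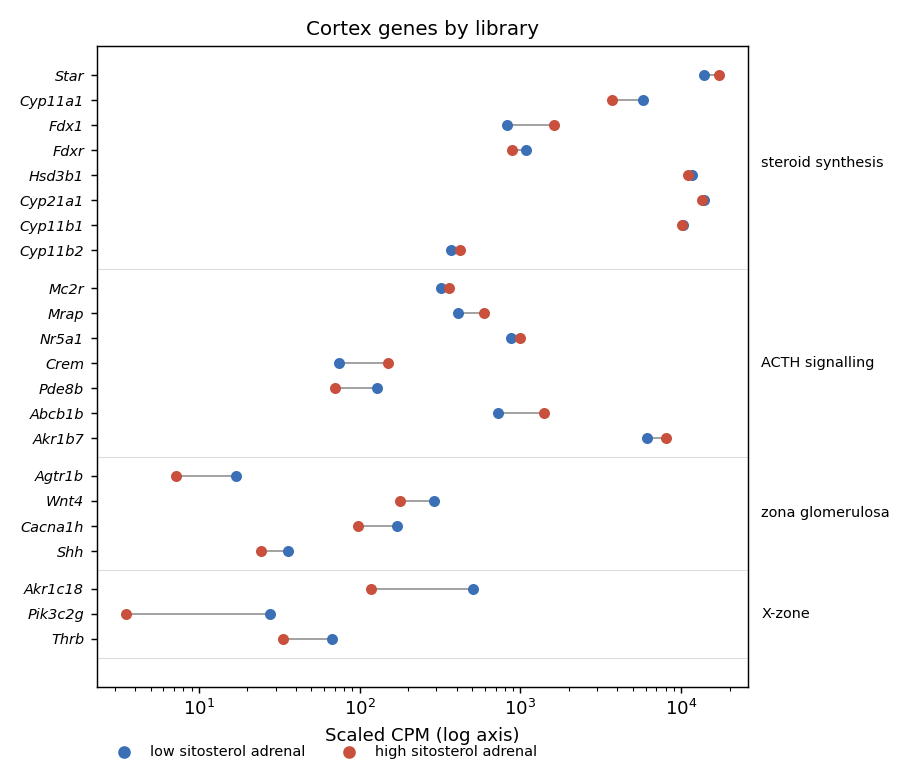
Scaled CPM (log axis) of cortex genes in the low sitosterol (blue) and high sitosterol (red) adrenal library, 1 point per library, joined by a grey line and grouped by role. The end enzymes of steroid synthesis overlap, Fdx1 and Cyp11a1 part in opposite directions, and the 3 X-zone genes lie well to the left in the high sitosterol library.

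Cholesterol synthesis enzymes stood lower in the high sitosterol adrenal, by less than 2-fold for nearly all of them. Of 20 enzymes 18 were below 0, with a median log2 ratio of -0.65 against 0.00037 over all genes. Only 1 passed the 2-fold limit, Fdps, which makes farnesyl pyrophosphate, at 126 and 62.0 scaled CPM (log2 -1.02, -1.09 to -0.96). The synthase gene Hmgcs1 stood at 175 and 113 (-0.64), and the epoxidase gene Sqle at 30.5 and 18.8 (-0.70). Acat2, which condenses acetyl-CoA, was at -0.85 and Cyp51, the lanosterol demethylase, at -0.82. The 2 enzymes on the other side were Idi1 (0.01) and Dhcr7 (0.04). In the livers of the series, which are other libraries, the same list had a median of -0.80 for high against low sitosterol, beside -0.06 over all liver genes.

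The sensors and receptors of the pathway did not differ in 1 direction. Insig1, the sterol-regulated anchor of SCAP and itself a target of SREBP2, stood at 127 and 62.1 scaled CPM (-1.04, -1.10 to -0.97). Stard4, a sterol carrier of the same programme, was at -0.61, and Srebf2, which encodes SREBP2, at -0.22. Rnf145, a sterol-responsive ubiquitin ligase, was the member counted as higher, at 152 and 349 (1.19). The SREBP2 list as a whole had 1 of 11 higher, 1 lower and a median of -0.13.

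Promoters of genes from both lists are shown because the SREBP factors bind sterol regulatory elements next to boxes for the factor NF-Y. Sequences are from RefSeq (GRCm38.p6) and span 250 bases before and 50 from the annotated start, 5′ to 3′ on the strand of the gene. Capitals mark exact matches to the sterol element core TCACCCCAC, searched on both strands. They also mark the NF-Y box CCAAT, which reads as its reverse complement where it lies on the other strand. In Insig1 they mark an E-box, CACGTG, as well, and no match overlaps another.
Hmgcs1, chr13:119690101-119690400, plus strand: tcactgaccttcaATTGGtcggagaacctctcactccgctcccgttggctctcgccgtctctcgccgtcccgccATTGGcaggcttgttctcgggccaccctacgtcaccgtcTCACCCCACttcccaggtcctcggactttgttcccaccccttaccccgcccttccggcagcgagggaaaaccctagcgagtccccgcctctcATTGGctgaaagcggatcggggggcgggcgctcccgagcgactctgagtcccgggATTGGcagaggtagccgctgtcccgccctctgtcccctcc
Cyp51, chr5:4104648-4104947, minus strand: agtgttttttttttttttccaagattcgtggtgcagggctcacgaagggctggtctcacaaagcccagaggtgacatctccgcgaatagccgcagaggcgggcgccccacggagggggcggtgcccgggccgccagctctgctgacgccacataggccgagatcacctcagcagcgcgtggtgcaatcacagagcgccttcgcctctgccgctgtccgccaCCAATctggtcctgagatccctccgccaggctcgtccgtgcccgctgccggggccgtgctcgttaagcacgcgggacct
Insig1, chr5:28071162-28071461, plus strand: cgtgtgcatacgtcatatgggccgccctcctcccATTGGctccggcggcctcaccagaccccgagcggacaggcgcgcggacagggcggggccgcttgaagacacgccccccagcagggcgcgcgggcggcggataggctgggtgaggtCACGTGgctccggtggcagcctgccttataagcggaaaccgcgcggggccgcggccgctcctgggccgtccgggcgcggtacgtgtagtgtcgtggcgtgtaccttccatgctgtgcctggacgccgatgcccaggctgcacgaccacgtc
The CCAAT box was present in 14 of the 15 cholesterol synthesis genes with a promoter in the table, against 42.6% of the 10647 analysed genes with one. The exact sterol element core was found in Hmgcs1 alone among the 15, 137 bases before its start, against 0.723% of all. In SREBP2-list genes the CCAAT box was in 4 of 8. The match counts describe these windows and say nothing of binding, and no match says only that these exact letters are not in the window.

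Genes of lipoprotein uptake, sterol storage and export mostly stood within 2-fold. Scarb1, the main entry of cholesterol into the mouse cortex, was 1.34-fold higher, at 4388 and 5894 scaled CPM (log2 0.43, 0.42 to 0.43). Apoe, a lipoprotein that the cortex itself secretes, stood at 827 and 1649.7, 1.99-fold higher. Lipoprotein lipase, Lpl, was the member counted as lower, at 826 and 275 (-1.58), and it is also an adipocyte gene. Pdzk1, the adaptor of Scarb1, was counted as higher from only 0.315 and 1.10 scaled CPM. The acyltransferase gene Soat1, which esterifies cholesterol, was at -0.44. The ester hydrolase gene Lipe, also on the white adipocyte list, was at -0.41 and the other hydrolase gene Nceh1 at -0.61. Soat2, the acyltransferase of liver and gut, was the 1 of these 16 genes counted as higher, from only 15 and 49 counts (log2 1.45, 0.62 to 2.42), and it reached 1 CPM in the high library alone. Npc1 and Npc2, which release sterol from lysosomes, were at 0.14 and -0.08. Targets of the oxysterol receptor LXR had 1 of 14 higher, 1 lower and a median of -0.01. The exporter genes Abca1 (-0.23) and Abcg1 (0.37) parted slightly, and Srebf1 was at 0.27. The LXR target counted as higher was the macrophage gene Cd5l, at 0.291 and 2.33 scaled CPM.

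Fatty acid and triglyceride synthesis genes were lower in the high sitosterol adrenal, with 2 of the largest differences in counts. Of 18 genes 7 were lower and 0 higher, beside 2.31% and 3.80% of all genes, with a median of -0.92. Their summed level was 26227 (low) and 13759 (high) scaled CPM. Scd1, the stearoyl-CoA desaturase (chromosome 19, 44394455 to 44407879, minus strand), stood at 10936 and 3718 (2.94-fold). Fasn, the fatty acid synthase, stood at 3984 and 1250.1 (3.19-fold). Dgat2 (-1.66), Elovl6 (-1.48), Gpam (-1.31) and Thrsp (-1.31) were lower by similar amounts. Acly (0.04), Fads2 (-0.01) and Scd2 (-0.22) were not, although they belong to the same pathway.

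**Figure D3:**
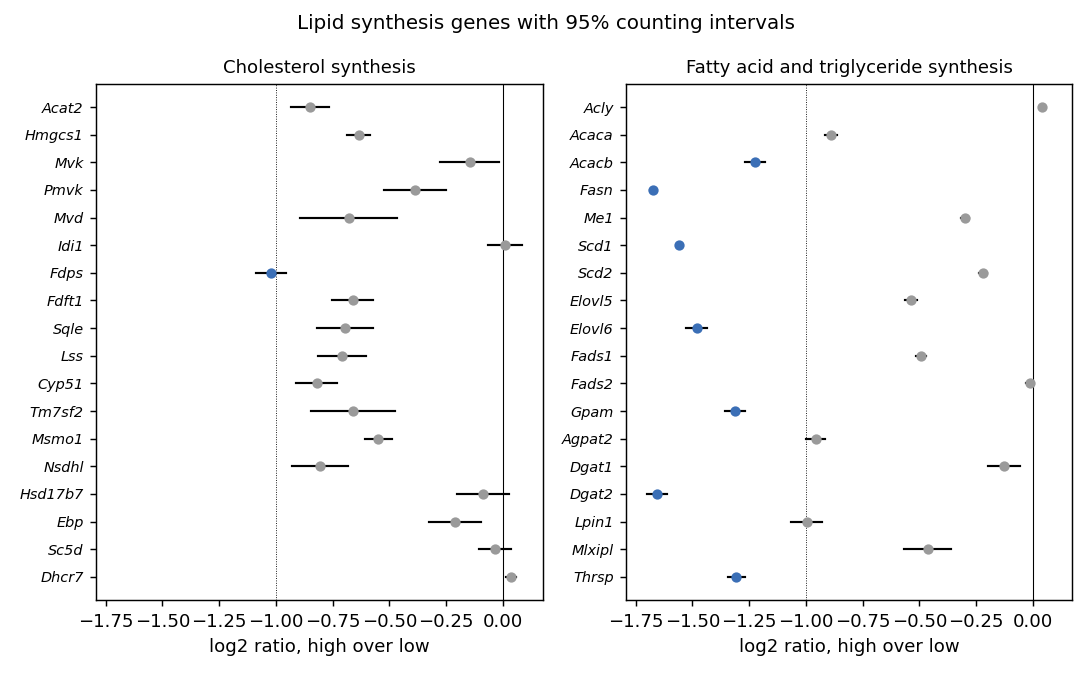
Log2 ratio (high over low sitosterol adrenal) of 18 cholesterol synthesis and 18 fatty acid and triglyceride synthesis genes, in the order of the lists, with exact 95% counting intervals as bars. Blue points passed the 2-fold limit (dotted line). Among the cholesterol genes shown, Idi1 and Dhcr7 lie above 0 and only Fdps lies beyond the limit, whereas 7 fatty acid genes lie beyond it.

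Adipocyte markers were lower by much the same amounts. Of the 11 white adipocyte markers 7 were lower and 0 were above 0, with a median of -1.19. Over all genes 2.31% were lower, and the counts of the fat-related lists here are read beside that share. Adipoq, the hormone adiponectin, stood at 255 and 103 scaled CPM (-1.30), Fabp4 at 1237 and 519.6 (-1.25), Cfd at 1183 and 561 (-1.08) and Pck1 at 669 and 201 (-1.74). Of the 9 brown adipocyte markers 5 were lower. Ucp1, the uncoupling protein of brown fat (chromosome 8, 83290352 to 83298452, plus strand), stood at 308 and 66.8 (-2.20, -2.26 to -2.15), and Elovl3 at 15.5 and 2.38 (-2.70). Lipid droplet proteins had 6 of 12 lower and a median of -0.81. Their leading members, Cidea (-1.59), Cidec (-1.54) and Plin5 (-1.51), are abundant in fat. Fatty acid oxidation genes had 3 of 18 lower, among them the muscle-type and brown-fat isoform Cpt1b at -1.55, with a median of -0.72. Other genes with low ratios included C3, a complement factor that fat expresses, at 2200 and 515, Car3 at 1555 and 576, Orm1 at -1.84, and the matrix gene Col6a1 at -1.30. How much of the fatty acid synthesis difference comes from a different amount of fat in the 2 samples was not tested.

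Chromaffin cell genes were nearly all on the higher side, by unequal amounts below 2-fold. Of 24 markers 23 were above 0, with a median of 0.55, a highest value of 0.91 (the transcription factor Phox2a) and 0 past the 2-fold limit. Th, the first enzyme of catecholamine synthesis, stood at 455 and 599 scaled CPM (0.40, 0.37 to 0.42), and Pnmt, which makes adrenaline, at 459 and 599.9 (0.39). The granule protein genes Chga (1654 and 2374) and Scg2 (964 and 1369) were higher as well, and Penk (-0.07) was the member below 0. Schwann and glial markers had 0 of 7 past the limit and summed to 38.8 and 41.8 scaled CPM. Endothelial markers had 0 of 12 past the limit and a median of 0.03.

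Immune cell transcripts stood higher in the high sitosterol adrenal, many of them from low levels. The 18 macrophage markers summed to 652 scaled CPM in the low and 1088 in the high library. Of the 17 analysed 8 were higher and 0 lower, beside 3.80% and 2.31% of all genes. The complement genes C1qa (76.2 and 157), C1qb (79.1 and 150.2) and C1qc (64.2 and 124) and the receptor Csf1r (61.4 and 116) stood between 1.89-fold and 2.06-fold higher. Cd163, the haemoglobin scavenger receptor of tissue macrophages, stood at 10.9 and 36.9 (log2 1.76, 1.62 to 1.92), and Mrc1 at 27.4 and 61.9. Marco, Vsig4 and Timd4 reached 1 CPM in the high library alone, and Marco had 3 and 124 counts (4.94, 3.56 to 7.44). Genes of lipid-loaded macrophages were divided, with 6 of 14 above 0 and 8 below. Trem2 (1.00, just short of the limit), Spp1 (0.90) and Cd9 (0.72) were on the higher side. Gpnmb (-1.24), Mmp12 (-1.43) and Lpl (-1.58) were the 3 counted as lower, and 0 were counted as higher. Lpl is also an adipocyte gene, and the adipocyte markers were lower as well; their part in this list was not tested. In liver the macrophage and lipid-loaded macrophage lists had medians of 1.39 and 2.61, beside -0.06 over all liver genes. There 13 of 18 and 8 of 14 members were higher and 2 and 1 were lower, beside 7.73% and 3.53% of 12079 genes.

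The 11 neutrophil markers summed to 8.51 and 29.0 scaled CPM, and 4 of the 7 that were analysed reached 1 CPM in the high library alone. The calprotectin genes S100a8 (1.16 and 5.10) and S100a9 (1.84 and 7.46) were both counted as higher. T and NK cell markers summed to 12.7 and 20.5, and 4 of the 8 analysed reached 1 CPM in the high library alone. Cd4 had 24 and 141 counts and Gzma 53 and 143. Of the T cell receptor genes, Cd3e had 21 and 24 counts, Cd3d 24 and 17, Trac 23 and 21 and Cd3g 15 and 35. B and plasma cell markers summed to 41.8 and 73.3, mostly from Ighm (31.4 and 51.1 scaled CPM). Of the 5 analysed, Pax5 alone was below 0, at -0.64, against 1.04 in TPM. Class II genes had 9 of 9 above 0 and a median of 0.46, with Cd74 at 338 and 476. Red cell transcripts were higher too, with Hbb-bs at 761 and 1183 scaled CPM, and whether blood content accounts for the leukocyte genes was not tested.

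Chemokines and cytokines summed to 59.8 (low) and 142 (high) scaled CPM. Of 15 analysed members 9 were higher and 0 lower, beside 3.80% and 2.31% of all genes. However, 7 of the 15 reached 1 CPM in the high library alone. Ccl2, which draws monocytes, had 30 and 393 counts (log2 3.46, 2.94 to 4.07), and Ccl8 had 16 and 282 (3.87). Il6 had 1 and 139 counts, a ratio with a log2 interval from 4.39 to 12.2. Ccl6 stood at 14.7 and 44.4 scaled CPM. Tnf stayed below 1 CPM in both libraries, with 4 and 11 counts. Interferon-stimulated genes did not follow, with 1 of 19 higher, 0 lower and a median of 0.10.

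The highest ratios among genes at 10 CPM or more belonged to genes of varied roles. Adamts4, an aggrecan-cleaving protease (chromosome 1, 171250421 to 171260637, plus strand), stood at 2.16 and 56.7 scaled CPM, 26.2-fold higher (log2 4.71, 4.41 to 5.04). Has1, a hyaluronan synthase, stood at 0.654 and 12.6 (4.25), and Ch25h, which makes the oxysterol 25-hydroxycholesterol, at 0.994 and 11.4 (3.50, 3.06 to 4.01). Fosl1, a subunit of the AP-1 transcription factor, stood at 1.67 and 13.8 (3.04), and Ier3 (1.03) was the other immediate early gene counted as higher. Fos was at -0.58, Egr1 at -0.76 and Junb at -0.22, and the list had 2 of 17 higher and a median of -0.03. The receptor gene Gpr35 (2.77), the activin-binding protein gene Fst (2.57), alkaline phosphatase Alpl (2.62) and Arid5a (2.51), an RNA-binding protein that stabilises Il6 transcripts, completed this group. Macrophage products were present as well, with Chil3 at 2.44 and Wfdc17 at 2.60. The remaining genes were Fam161a (17.5 and 128 scaled CPM), a ciliary protein gene, Atg101 (36.1 and 217), a subunit of the autophagy initiation complex, Bean1 (12.6 and 72.2) and Fndc4 (10.8 and 64.4).

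**Figure D4:**
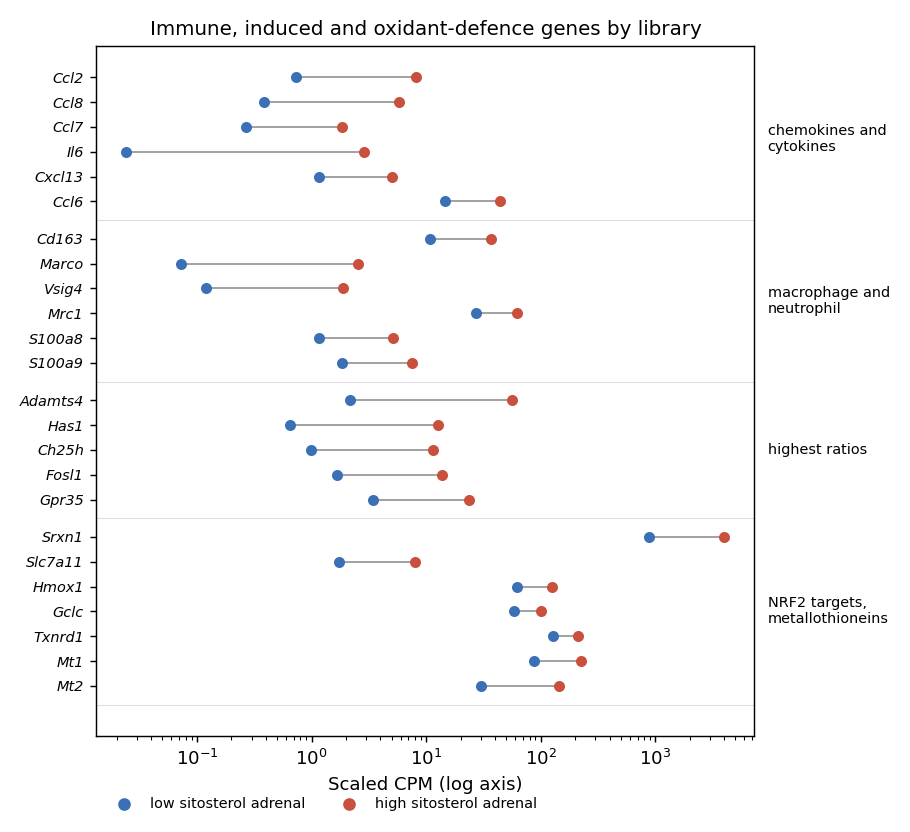
Scaled CPM (log axis) of immune genes, of genes with the highest ratios and of oxidant-defence genes in the low sitosterol (blue) and high sitosterol (red) adrenal library, 1 point per library. All genes shown are higher in the high sitosterol library. Il6, Marco and Vsig4 start from 1 to 5 counts, while Srxn1 starts from 880 scaled CPM.

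Srxn1 had the largest positive difference in scaled CPM of any gene apart from Star. It encodes sulfiredoxin, which in mouse adrenal cortex restores the peroxiredoxin of mitochondria after it is oxidised during steroid synthesis. It stood at 880 and 4017 scaled CPM (chromosome 2, 152105516 to 152111376, plus strand), 4.57-fold higher (log2 2.19, 2.17 to 2.21), and at 542 and 2411 TPM. Other targets of the oxidant sensor NRF2 differed in both directions. Slc7a11, the cystine importer gene, stood at 1.72 and 7.98 (2.21, 1.84 to 2.60) and Hmox1, haem oxygenase, at 62.6 and 125 (1.00), which is at the limit. Nqo1 (0.91), Gclc (0.77), Osgin1 (0.77) and Txnrd1 (0.75) were on the same side, Gclm was at 0.06 and Gsta3, a glutathione transferase gene, at -0.63, and the list had 3 of 17 higher, 0 lower and a median of 0.17. The metallothionein genes Mt1 (87.3 and 225) and Mt2 (30.1 and 144), which bind zinc and copper, were higher, and both are on the list of glucocorticoid receptor targets. That list had 3 of 15 higher (with Lcn2 at 1.88), 1 lower (Pdk4 at -1.28) and a median of -0.23, with Fkbp5 at 0.10, Tsc22d3 at -0.42 and Per1 at -0.11.

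The promoter of Srxn1 is shown because of this difference, with matches on either strand to the AP-1 element TGACTCA, or its reverse complement, in capitals.
Srxn1, chr2:152105274-152105573, plus strand: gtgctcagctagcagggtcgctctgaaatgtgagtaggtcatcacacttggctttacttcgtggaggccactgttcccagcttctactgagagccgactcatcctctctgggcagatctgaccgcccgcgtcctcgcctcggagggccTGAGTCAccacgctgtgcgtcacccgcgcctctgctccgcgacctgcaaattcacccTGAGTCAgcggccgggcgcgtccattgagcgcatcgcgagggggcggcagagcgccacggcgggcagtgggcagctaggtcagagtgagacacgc
The matches start 102 and 45 bases before the annotated start. The element was in 3 of the 14 NRF2-list genes with a promoter in the table (Osgin1, Prdx1 and Srxn1) and in 4.67% of the 10647 analysed genes. A looser antioxidant element, TGACNNNGC, was in 6 of the 14 and in 17.0% of all. Prdx1 and Srxn1 carry both elements, and the antioxidant match of Srxn1 is not marked in the sequence above. Prdx1 stood at 507 and 538 scaled CPM.

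Single genes with a large share of the difference in counts also included Odc1, the first enzyme of polyamine synthesis, at 358 and 1040.2 scaled CPM (log2 1.54), Tinagl1, a matrix glycoprotein, at 238 and 571, and the vitamin C transporter gene Slc23a2 at 357 and 742. Inha, the inhibin alpha subunit that the cortex makes, stood at 17.3 and 44.2 (1.35). On the lower side, Oxtr, the oxytocin receptor, stood at 229 and 57.8 (-1.99), A2m, a protease inhibitor, at 74.0 and 10.9 (-2.76), Mmd2 at 36.4 and 7.58, and Elfn1 was at -2.44. Rbp4, the retinol carrier, was at -2.19, the ferritin receptor gene Scara5 at -1.85 and the fatty acid carrier Fabp3 at -1.90.

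The remaining lists are read beside the 6.11% of all genes past the limit in either direction. Cell proliferation genes had 0 of 24 past the limit and a median of 0.08, with Mki67 at 12.1 and 10.3 scaled CPM. Cytosolic heat shock chaperones (0 of 15, median -0.15), endoplasmic reticulum stress genes (0 of 15, -0.13), hypoxia and glycolysis genes (0 of 14, -0.13) and mitochondrially encoded transcripts (0 of 13, -0.22) held none past the limit. The p53 targets had 1 of 14 lower, Eda2r at -1.06, and the integrated stress response genes 1 of 14 higher, Slc7a11. Collagens and matrix genes had 3 of 22 lower and 1 higher, the protease inhibitor Timp1 at 12.2 and 33.5. Clock genes had 1 of 18 higher, Bhlhe41 at 1.23, 1 lower, Npas2 at -1.79, and a median of 0.05, with Arntl at -0.50, Dbp at 0.86 and Nr1d1 at 0.90. The hour of collection is not given in the sources used here.

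**Figure D5:**
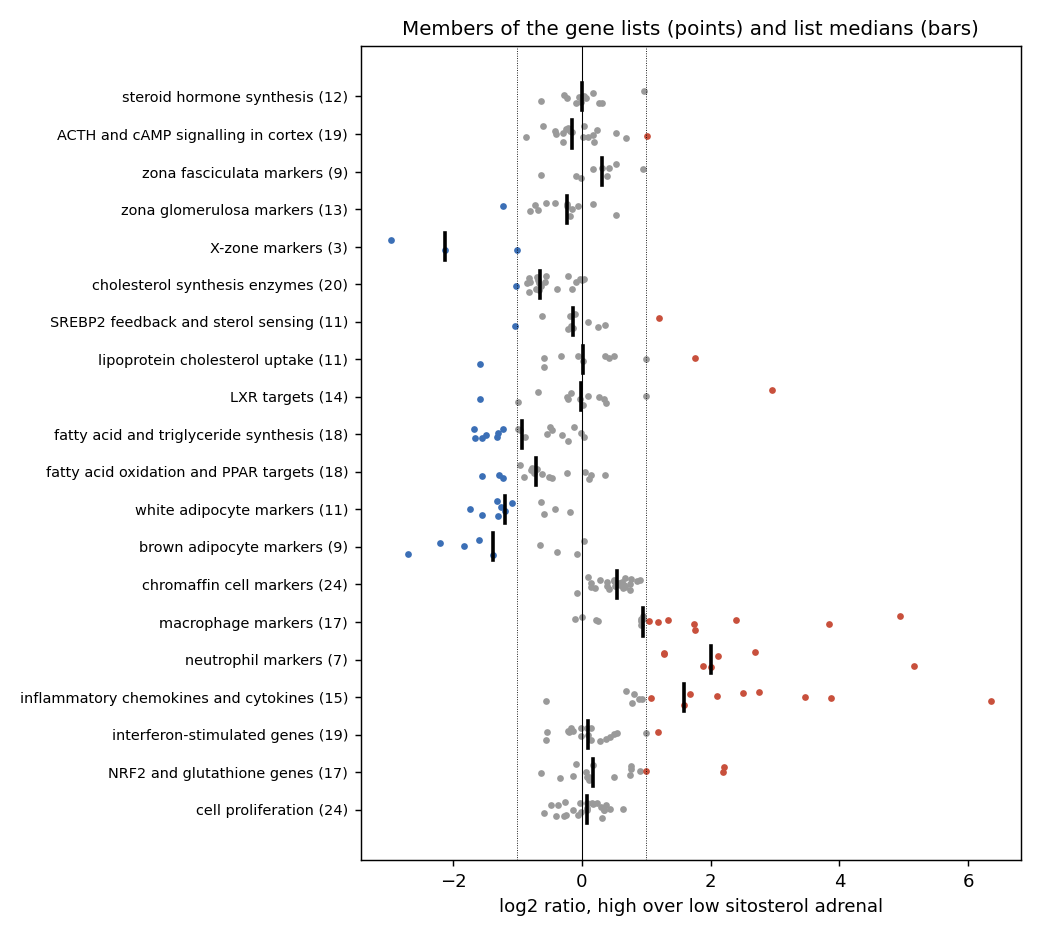
Log2 ratio (high over low sitosterol adrenal) of the analysed members of 20 gene lists, 1 point per gene, with the number of analysed members in brackets and the list median as a black bar. Red and blue points were counted as higher or lower and the dotted lines mark 2-fold. Steroid synthesis genes centre on 0, and the X-zone, adipocyte and lipid synthesis lists lie to the left. The macrophage, neutrophil and chemokine lists lie to the right, while interferon-stimulated genes centre near 0.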

How the data were processed

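RNA was measured by sequencing in 6 libraries, 2 of them from adrenal gland. Per the labels' protocols, Qiagen RNeasy columns gave the RNA. The library kit was TruSeq RNA v2, and it keeps no strand, so reads of overlapping and antisense genes cannot be fully separated. Apart from strand, reads of close copies such as Hba-a1 and Hba-a2 or Mt1 and Mt2 cannot be fully separated either. The protocols describe the storage of livers and do not name adrenals. Per the submitters' processing notes, the tools included kallisto 0.43.1, HISAT2 2.0.5 and Trimmomatic 0.33, with mm10 as the build and no roles given. The authors deposited estimated counts per gene symbol, not whole for 47.3% (low) and 49.1% (high) of genes, and TPM for the same libraries.

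Estimated counts were rounded, 1 row naming no gene (below 1% of counts over all libraries) was left out, and TMM factors came from edgeR 4.0.16 in R 4.3.3. Log2 ratios used a prior count of 0.5. Intervals are exact (Clopper-Pearson, conditional binomial, scipy 1.17.1) at 95% and, like limits at 0 counts, cover counting error only, since PCR copies are not independent molecules. With 1 library per group, edgeR's test could not be fitted. The rule was tested on simulated data. Named genes were 24 fixed genes, the 15 highest and 15 lowest ratios (ordinary symbol, 10 CPM or more), the 20 largest differences in scaled CPM per direction and up to 4 members of each list. Other named genes were chosen after their values were seen, and some genes that the rule names are not reported here. Members and lists were chosen with earlier results of these data known, and 2 motifs, the AP-1 element and an antioxidant element, were added after ratios were seen, as were the choice of printed promoters, the lists weighed most in the sensitivity comparison and its limit of 0.2 for a moved list median. Coordinates are from GENCODE M21 (GRCm38, mm10), in which 32158 of 33639 symbols were found.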

Additional observations from a re-analysis of the deposited data

Results flagged for a closer look

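For 6 named genes the high sitosterol library was at least 2-fold above the low one in adrenal and at least 2-fold below it in liver, or the reverse. Each reached 10 scaled CPM in the higher library of each tissue, and the other library could be far lower. These size limits were set after values were seen. The difference between tissues was not tested, since each side is 1 library. Y-linked counts were also low in both adrenals and not in the livers, so tissue and apparent sex cannot be told apart. Lpl, lipoprotein lipase, was at -1.58 on the log2 scale in adrenal and at 3.34 in liver. The lipid-loaded macrophage genes Gpnmb (-1.24 in adrenal, 7.56 in liver) and Mmp12 (-1.43 and 4.82) went the same way, as did Mmd2 (-2.26 and 2.51). In liver Gpnmb had 4 (low) and 957 (high) counts and Mmp12 had 15 and 494, so these liver ratios start from few counts. Acta2, smooth muscle actin (1.33 in adrenal, -2.82 in liver), and the clock repressor gene Bhlhe41 (1.23 and -1.88) went the other way. The low sitosterol liver held more counts of adrenal genes, with 1044 (low) and 64 (high) of Star and 702 and 15 of Cyp11a1. Of the 10 steroid synthesis genes analysed in liver 5 were lower and 0 higher, beside 3.53% and 7.73% of all liver genes. The part of such RNA in these liver ratios was not tested.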

How the results depend on the processing

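The counts of higher and lower genes stayed within 1.5 times of 540 and 329 when libraries were scaled by total counts, median-of-ratios size factors or TMM over all libraries, on log2(TPM + 0.1) and with a prior count of 5. They were 271 and 197 on log2(TPM + 1), 1051 and 662 with no filter, 241 and 179 at a mean of 5 CPM or more, 1439 and 1023 at 1.5-fold and 117 and 47 at 4-fold. Over all lists, 21 comparisons of a list median with an alternative moved by 0.2 or more and 376 did not. Among those that moved, the median of the chemokine and cytokine list, 1.59, was 0.99 on log2(TPM + 1), 1.36 with no filter and 0.93 at a mean of 5 CPM or more. The cause was not tested. No named gene counted as higher or lower changed sign under any of these, and 29 of their comparisons with an alternative were under the 2-fold limit, among them Crem and Hmox1 with TMM over all libraries and Thrb with total counts. By DESeq2 1.42.0 size factors the counts were again 540 and 329. Of the 869 genes counted, 5 lay on the other side of equality in TPM (Grid1, Kif19a, Myt1, Myt1l and Sgk2). No paired analysis was possible because each group had 1 library. Depth limits genes near 1 CPM most, and their intervals are the widest.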
